A study of Mus musculus with 12 samples.

Results

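The oxidative phosphorylation subunits are the proteins of the respiratory chain and of the ATP synthase, and their genes were chosen by name: the Nduf subunits and mt-Nd genes of complex I, the Sdh genes of complex II, the Uqcr genes with Cyc1 and mt-Cytb of complex III, the Cox4 to Cox8 and mt-Co genes of complex IV, the Atp5 and mt-Atp genes of complex V, and Cycs, which encodes the carrier cytochrome c. Of 41743 genes in the deposited tables, 100 matched the names once a pseudogene name was left out, and 94 reached 1 TPM (transcript reads per length, scaled to the same total in each library) in at least 3 of 12 livers. Of these, 81 are encoded in the nucleus and 13 in mitochondrial DNA, with 44 in complex I, 4 in complex II, 10 in complex III, 16 in complex IV and 19 in complex V beside Cycs. The 6 that did not reach this level were Atp5o_1, Cox4i2, Cox6a2, Cox7b2, Cox8b and Cox8c. Just inside was Cox6b2, at 1 TPM or more in 3 livers, and just outside was Cox6a2, at that level in 1.

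Whole frozen livers of 12 female mice aged 3 to 4 months were sequenced, 3 in each of 4 groups. YAP KO mice carried Foxa3-Cre, Yap1 fl/fl and ROSA-stop fl/fl-EYFP on C57BL/6 and were set against WT littermates, here WT (C57BL/6). YAP KO TAZ HET mice carried Foxa3-Cre and Yap1 fl/fl, had also lost 1 copy of Wwtr1, the gene of TAZ, on a mixed C57BL/6 and FVB background, and were set against their own WT littermates, here WT (mixed). Foxa3-Cre acts in the foregut endoderm, from which hepatocytes and bile duct cells arise. Other cells of these livers would then keep both genes, but deletion by cell type was not measured here. The paper mentions evidence, without showing data, that the line may also act in the developing kidneys, a mesodermal tissue. In bulk tissue, fewer cells of a type and less RNA per cell cannot be told apart. Each comparison of a model with its littermates asks how the liver differs after the deletion. Genotype goes with background between the models, and these cannot be told apart there. Values of single livers are given in the order LM74, LM189 and LM191 (YAP KO), LM75, LM192 and LM193 (WT (C57BL/6)), LM225, LM250 and LM251 (YAP KO TAZ HET), and LM226, LM227 and LM230 (WT (mixed)).

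Complexes I and II pass electrons from NADH and succinate to ubiquinone, complex III passes them to cytochrome c and complex IV to oxygen. Complexes I, III and IV pump protons across the inner mitochondrial membrane, and complex V, the ATP synthase, uses the gradient to make ATP. Mitochondrial DNA encodes core membrane subunits of every complex but complex II, so that the others are built from the products of both genomes. Hepatocytes are rich in mitochondria and use this ATP for urea, glucose and bile acid synthesis.

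Yap1 measured 3.72, 1.93 and 1.67 TPM across YAP KO and 30.5, 30.4 and 28.2 TPM across WT (C57BL/6), without overlap, and its log2 fold change was -3.51 (SE 0.18, adjusted p = 8.54e-06 by limma with Benjamini-Hochberg adjustment). For YAP KO TAZ HET it was -1.93 (adjusted p = 3.6e-05), and Wwtr1, of which these mice had lost 1 copy, had a value of 0.26 (adjusted p = 0.0744), beside 0.73 (adjusted p = 0.00186) for YAP KO, by limma, so that it gives no check of the TAZ HET label. The summed TPM of 9 hepatocyte markers was 79700 to 90900 in YAP KO against 97200 to 108000 in WT (C57BL/6), and 78300 to 93700 in YAP KO TAZ HET against 90700 to 111000 in WT (mixed). Most of each sum was Alb, with means of 60140 against 78600 TPM and of 61510 against 75450 TPM. Of the 9 markers, 2 and 1 were lower on the scaled values, where 17.9% and 19.0% of all genes were. Their median log2 fold changes were -0.04 and -0.12, and 0.32 and 0.21 without scaling. All 10 macrophage markers were higher in both models, with sums of 1120 to 1600 against 406 to 524 and of 1600 to 1710 against 355 to 724. The 8 cholangiocyte markers summed to 336 to 759 against 36.7 to 64.4 TPM and to 110 to 231 against 50.3 to 66.9, of which 5 were tested and 2, Spp1 and Sox9, were higher in each model while Epcam was lower in YAP KO TAZ HET, and the 8 stellate cell and fibroblast markers to 339 to 441 against 134 to 158 and to 296 to 378 against 119 to 151. Muscle and brown fat, which have their own isoforms of some subunits, gave at most 3.35 TPM over 7 markers. Several of these sums differed between genotypes, as the subunits did, and their part in the results was not tested.

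The transcripts of mitochondrial DNA other than mt-Atp8 were above those of every nuclear-encoded subunit, and mt-Co1, a catalytic subunit of complex IV, was the highest of all at a mean of 29520 TPM over the 12 livers. The other mitochondrial extremes were mt-Nd1 (10600 TPM) and mt-Nd4l (2017 TPM) in complex I, mt-Co3 (16420 TPM) as the lowest in complex IV, and mt-Atp6 (15950 TPM) and mt-Atp8 (539.7 TPM) in complex V, with mt-Cytb of complex III at 11100 TPM. Among nuclear-encoded genes, the highest means were 625.1 TPM for Ndufa4 in complex I, 325.5 TPM for Sdha in complex II, 410.2 TPM for Uqcr11 in complex III, 981.2 TPM for Cox6a1 in complex IV and 1201 TPM for Atp5b, the beta subunit of complex V. The lowest were Ndufa4l2 (5.022 TPM), Sdhc (111.8 TPM), Cyc1 (202.6 TPM), Cox6b2 (0.5435 TPM) and Atp5md (50.53 TPM). The median level of nuclear-encoded genes was 124.5 TPM in complex I and 306.7 TPM in complex III. The order of levels hardly differed between groups, with a Spearman rho of mean TPM over the 81 nuclear-encoded genes of 0.989 between WT (C57BL/6) and YAP KO, 0.985 between WT (mixed) and YAP KO TAZ HET and 0.993 between the WT groups.

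In YAP KO livers the transcripts of nearly every subunit were lower than in WT littermates on the scaled values, while YAP KO TAZ HET livers had fewer genes past the threshold, mostly the same genes. Fold changes are on the scale log2(TPM divided by a scaling factor + 1), in which a trimmed mean of log ratios sets the bulk of genes equal between livers, whereas the TPM given for single livers are unscaled. The factors were 1.09 to 1.22 in YAP KO and 0.852 to 0.913 in WT (C57BL/6), and 1.07 to 1.18 in YAP KO TAZ HET and 0.858 to 0.947 in WT (mixed), so that a gene at equal TPM in both groups has a negative log2 fold change. In YAP KO, 74 of the 93 genes tested were lower at an adjusted p under 0.05 (limma, Benjamini-Hochberg over all genes tested), against 17.9% of all genes. None was higher, against 18.8% of all genes. At an unadjusted p under 0.05 (limma) none was higher either, against 2681 of all genes. The median log2 fold change was -0.49 (range -1.04 to -0.14), beside -0.04 over all 11704 genes. In 82 of the 93 the ranges of the scaled values did not overlap, with every YAP KO liver below every WT liver, which held for 26.3% of all genes.

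In YAP KO TAZ HET, 34 of 93 were lower by the same limma test, against 19.0% of all genes, and again none was higher, against 19.2%. At an unadjusted p under 0.05 (limma) none was higher either, against 2706 of all genes. The median was -0.37 (range -1.12 to 0.55), beside -0.04 over 11741 genes. The groups did not overlap in 52 of 93, against 27.6% of all genes. Leaving out LM227 or LM230 of the WT (mixed) mice lowered the count of 34 to 21. The share of all genes in those fits is not given here. Without scaling, 21 genes in YAP KO and 9 for YAP KO TAZ HET were lower, as described further on.

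**Figure D1:**
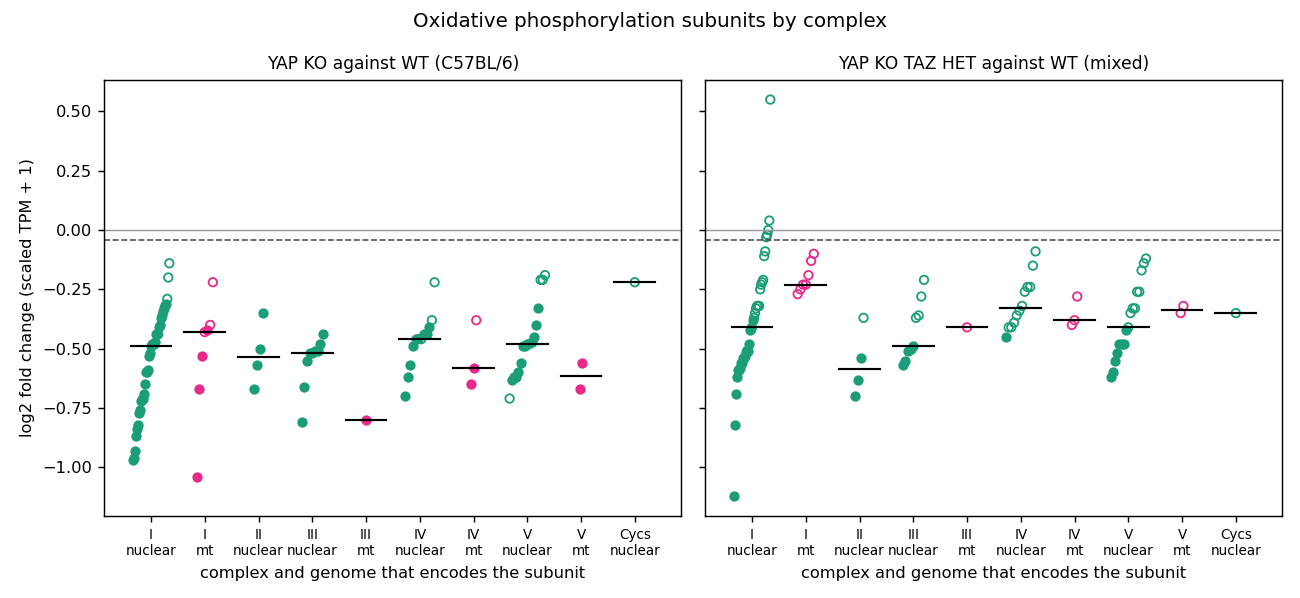
Log2 fold change of each subunit gene tested, grouped by complex and by encoding genome, for YAP KO against WT (C57BL/6) and YAP KO TAZ HET against WT (mixed) on the scaled values, where each point is a gene (filled at an adjusted p under 0.05 by limma, open otherwise), each short bar a median and the dashed line the median of all genes tested. Most points lie below 0, with nuclear-encoded medians from -0.54 in complex II to -0.46 in complex IV in YAP KO and from -0.59 in complex II to -0.33 in complex IV in YAP KO TAZ HET, where the nuclear-encoded median of complex IV turns to 0.07 after quantile normalization.

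Complex I, which oxidises NADH, had 36 of 44 genes lower in YAP KO and 17 for YAP KO TAZ HET, all of the 17 nuclear-encoded. Its core subunits hold the flavin and the iron-sulfur clusters. Ndufs8, which carries iron-sulfur clusters near the ubiquinone site (chr19:3908863-3912774, minus strand, GRCm38), stood at 82.53, 75.7 and 80.16 TPM across YAP KO and at 112.8, 97.83 and 106 TPM in WT (C57BL/6). It stood at 76.88, 81.09 and 81.57 TPM across YAP KO TAZ HET and at 95.88, 100.3 and 91.32 TPM in WT (mixed). Every liver of either model was below every WT liver. The log2 fold changes were -0.76 (SE 0.11, adjusted p = 0.00111) and -0.58 (SE 0.10, adjusted p = 0.00335) by limma with Benjamini-Hochberg adjustment.

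Ndufs1, which carries clusters of the NADH-oxidising arm, had log2 fold changes of -0.53 in YAP KO and -0.62 for YAP KO TAZ HET, and Ndufs3 of -0.65 and -0.56, all past the threshold. Ndufv1, which binds NADH and flavin, fell by 0.40 and 0.53 on the log2 scale, and Ndufv2 fell by 0.59 and 0.48. Ndufs7, near the ubiquinone site, fell by 0.84 in YAP KO, while its value for YAP KO TAZ HET was -0.41, with an adjusted p of 0.0917 by limma. Leaving out LM227 took the adjusted p (limma) to 0.0539 for Ndufs3 and 0.0766 for Ndufv2 in YAP KO TAZ HET, and leaving out LM192 took that of Ndufv1 to 0.0573 in YAP KO. Each of these calls was lost in 2 of the 6 fits that left out 1 mouse.

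The Ndufb genes, accessory subunits of the membrane arm of complex I, stood lowest among its name families, a grouping chosen after the values were seen. All 10 were lower in YAP KO (median -0.70) and 9 of 10 in YAP KO TAZ HET (median -0.58). Of the 14 Ndufa genes, 11 and 3 were lower, with medians of -0.47 and -0.23, and of the 8 Ndufs genes, 8 and 3, with medians of -0.56 and -0.39. The 3 of 14 Ndufa genes in YAP KO TAZ HET are near the 19.0% of all genes. The difference between families was not tested.

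Ndufb3 (chr1:58586384-58595964, plus strand, GRCm38) had the lowest mean fold change of complex I. It stood at 60.49, 71.46 and 72.98 TPM across YAP KO and at 105.4, 108.1 and 100.5 TPM in WT (C57BL/6), and at 64.43, 80.88 and 65.93 TPM across YAP KO TAZ HET against 120.9, 117.5 and 129.8 TPM in WT (mixed). The mean TPM was 68.3 ± 6.82 against 105 ± 3.89 and 70.4 ± 9.10 against 123 ± 6.31 (SD, n = 3 each), with a wide gap between model and WT livers in both sets of animals. Its log2 fold changes were -0.97 (SE 0.13, adjusted p = 0.000926) and -1.12 (SE 0.13, adjusted p = 0.000435) by limma.

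Ndufb10 (chr17:24722060-24724478, minus strand) stood at 184.4, 207 and 192.7 TPM across YAP KO and at 261.1, 285.7 and 285.6 TPM in WT (C57BL/6). In the other set it stood at 174, 220.8 and 204.5 TPM across YAP KO TAZ HET and at 265, 295.3 and 283.8 TPM in WT (mixed). The groups again did not overlap, and the log2 fold changes were -0.87 (SE 0.11, adjusted p = 0.000694) and -0.82 (SE 0.14, adjusted p = 0.00296) by limma.

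Ndufa5, an accessory subunit of the matrix arm, separated the groups in YAP KO but less so in YAP KO TAZ HET. It stood at 78.17, 78.6 and 70.82 TPM across YAP KO against 112.5, 116.5 and 118.9 TPM in WT (C57BL/6), a log2 fold change of -0.96 (SE 0.09, adjusted p = 0.000189 by limma). The YAP KO TAZ HET livers gave 69.29, 104.8 and 96.49 TPM against 103.8, 97.29 and 104.5 TPM in WT (mixed), so that on the TPM scale LM250 lay above every WT (mixed) liver (log2 fold change -0.51, adjusted p = 0.0511 by limma). At the other end stood Ndufv3 (-0.20 and -0.02), Ndufa8 (-0.14 and -0.00) and Ndufa4l2, a paralogue of Ndufa4 (-0.29 and 0.55), none past the threshold. Ndufa4 itself, grouped here by its name although structures place its protein in complex IV, had values of -0.47 (adjusted p = 0.0102 by limma) and -0.42 (adjusted p = 0.0566).

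Complex II, succinate dehydrogenase, is shared by the respiratory chain and the citric acid cycle and has no subunit from mitochondrial DNA. All 4 genes were lower in YAP KO (median -0.54) and 3 of 4 in YAP KO TAZ HET (median -0.59). Sdhb, the iron-sulfur subunit (chr4:140961203-140979193, plus strand, GRCm38), stood at 228.9, 245.3 and 249 TPM across YAP KO and at 303, 299.3 and 297.3 TPM in WT (C57BL/6). It stood at 231.2, 255.9 and 250.5 TPM across YAP KO TAZ HET and at 318.6, 358.4 and 286.9 TPM in WT (mixed). No model liver reached the level of a WT liver, and the log2 fold changes were -0.67 (SE 0.11, adjusted p = 0.00218) and -0.70 (SE 0.13, adjusted p = 0.00329) by limma.

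Sdha, the flavoprotein that oxidises succinate, fell by 0.50 and 0.63 on the log2 scale, and Sdhd, a membrane anchor, by 0.57 and 0.54. Sdhc, the other anchor, fell by 0.35 in YAP KO and had a value of -0.37 (adjusted p = 0.0632 by limma) in YAP KO TAZ HET. In unscaled TPM Sdhc was level, at 116 ± 6.27 in YAP KO and 116 ± 5.36 in WT (C57BL/6) (SD, n = 3 each). In YAP KO, leaving out LM191 took the adjusted p (limma) of Sdhc to 0.0889, and leaving out LM193 took that of Sdha to 0.0526. Of the 6 fits that left out 1 mouse, 4 lost the call for Sdhc and 1 for Sdha.

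In complex III, the 9 nuclear-encoded genes were all lower in YAP KO (median -0.52) and 5 of 9 in YAP KO TAZ HET (median -0.49). Uqcrb, a small subunit at the ubiquinone site, was lowest in YAP KO. It stood at 275, 320.5 and 259.1 TPM across YAP KO and at 394.8, 375.2 and 394.1 TPM in WT (C57BL/6), without overlap, a log2 fold change of -0.81 (SE 0.13, adjusted p = 0.00184 by limma). Its value for YAP KO TAZ HET was -0.55 (adjusted p = 0.0201 by limma), and 0.0702 without LM227. Uqcrfs1, the Rieske iron-sulfur protein, fell by 0.52 and 0.51, and Cyc1, cytochrome c1, by 0.51 and 0.50, past the threshold also with each mouse left out in turn. The small subunits Uqcrq, Uqcrh and Uqcr10 fell by 0.55, 0.51 and 0.52 in YAP KO, and had values of -0.36, -0.37 and -0.21 in YAP KO TAZ HET that did not pass it. Cycs, which carries electrons from complex III to complex IV, passed in neither model (-0.22, adjusted p = 0.162, and -0.35, adjusted p = 0.0987, by limma).

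Complex IV, cytochrome c oxidase, had the smallest share of nuclear-encoded genes past the threshold in YAP KO TAZ HET. In YAP KO, 8 of 12 were lower (median -0.46), and in YAP KO TAZ HET 1 of 12 was (median -0.33), namely Cox5a. The latter is a smaller share than the 19.0% of all genes. Cox5a, a matrix-side subunit, stood at 367.4, 403 and 390.6 TPM across YAP KO against 428.3, 398.4 and 374.1 TPM in WT (C57BL/6), which overlap in unscaled TPM, with log2 fold changes of -0.41 (adjusted p = 0.0302) and -0.45 (adjusted p = 0.0323) by limma. Its calls were weak, since in each model only 1 of the 6 fits that left out 1 mouse kept an adjusted p under 0.05 (0.0795 without LM75 and 0.0975 without LM230).

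By the mean of both models, the lowest nuclear-encoded members of complex IV were the small subunits Cox7b (-0.62 in YAP KO and -0.36 for YAP KO TAZ HET), Cox7c (-0.70 and -0.24) and Cox6c (-0.57 and -0.34), past the threshold in YAP KO alone. The difference between the models did not pass for any of them. At the other end were Cox7a1 (-0.46 and -0.24), Cox6b1 (-0.38 and -0.09) and Cox7a2l, a factor of supercomplexes (-0.22 and -0.15), which passed in neither. Where isoforms exist, the liver or ubiquitous form made up nearly all the transcript. Cox6a1 had a mean of 981.2 TPM and its muscle isoform Cox6a2 of 0.1848 TPM over the 12 livers, Cox4i1 of 791.2 TPM and Cox4i2 of 0.3494 TPM, Cox8a of 594.2 TPM and Cox8b of 0.09829 TPM, and Cox6b1 of 491.9 TPM and Cox6b2 of 0.5435 TPM. The minor isoforms stayed low in both models, as Cox6a2 reached at most 1.352 TPM and Cox4i2 at most 0.808 TPM in any liver. Cox4i1, Cox6a1 and Cox8a fell by 0.46, 0.49 and 0.44 in YAP KO, the last not without LM192 (adjusted p = 0.0607 by limma), while Cox7a2 had values of -0.46 (adjusted p = 0.0752) and -0.26 (adjusted p = 0.298). With LM74 and LM75, the mice of near numbers, as a block, an alternative chosen after the data were seen, Cox7a2 (adjusted p = 0.0087 by limma) and Cox6b1 (adjusted p = 0.0257) passed in YAP KO.

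In complex V, 12 of the 17 nuclear-encoded genes were lower in YAP KO (median -0.48) and 8 in YAP KO TAZ HET (median -0.41). The 4 peripheral stalk genes, which hold the catalytic head still, were all lower in both models, where 17.9% and 19.0% of all genes were. Their medians were -0.53 and -0.52, in a split of the complex made after the values were seen. Of these, Atp5h (subunit d) stood at 317.2, 338.7 and 327.1 TPM across YAP KO and at 396.8, 377.8 and 384.6 TPM in WT (C57BL/6). It stood at 294.6, 343.5 and 328.7 TPM across YAP KO TAZ HET and at 371.8, 404.8 and 407.7 TPM in WT (mixed). The groups did not overlap in either set, and the log2 fold changes were -0.60 (SE 0.11, adjusted p = 0.00372) and -0.62 (SE 0.13, adjusted p = 0.00727) by limma. Atp5j, another stalk subunit, fell by 0.62 and 0.48. The latter call was lost in 4 of the 6 fits that left out 1 mouse (largest adjusted p = 0.0864 by limma, without LM230). Atp5o, also of the stalk, lost its call in 3 such fits in YAP KO (largest adjusted p = 0.0608 by limma, without LM192). In YAP KO TAZ HET it lost it in 4 (largest adjusted p = 0.0699 by limma, without LM230).

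The c ring, which turns as protons pass, is encoded by 3 genes for 1 mature protein. Atp5g1 and Atp5g3 fell by 0.56 and 0.63 in YAP KO and by 0.48 and 0.52 in YAP KO TAZ HET, but in the latter not without LM227 (adjusted p = 0.0811 for Atp5g1) or LM230 (adjusted p = 0.125 for Atp5g3, by limma). There, 3 of the 6 fits that left out 1 mouse lost the call of Atp5g1 and 4 that of Atp5g3. Atp5g2 fell by 0.33 in YAP KO, a call lost in 4 of 6 such fits (largest adjusted p = 0.0972 by limma, without LM192), and had a value of -0.26 in YAP KO TAZ HET. In the catalytic head the alpha subunit Atp5a1 fell by 0.49 and 0.60, whereas the beta subunit Atp5b had values of -0.21 (adjusted p = 0.259) and -0.33 (adjusted p = 0.0573) by limma. In unscaled TPM, Atp5b stood at 1117, 1323 and 1307 in YAP KO and at 1126, 1117 and 1120 in WT (C57BL/6), so that 2 of the 3 YAP KO livers were above all WT livers, and its log2 fold change without scaling was 0.15. Atp5d of the central stalk (-0.19 and -0.17) and Atp5mpl, a small membrane proteolipid (-0.21 and -0.12), also stood near the top of the complex and passed in neither model.

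**Figure D2:**
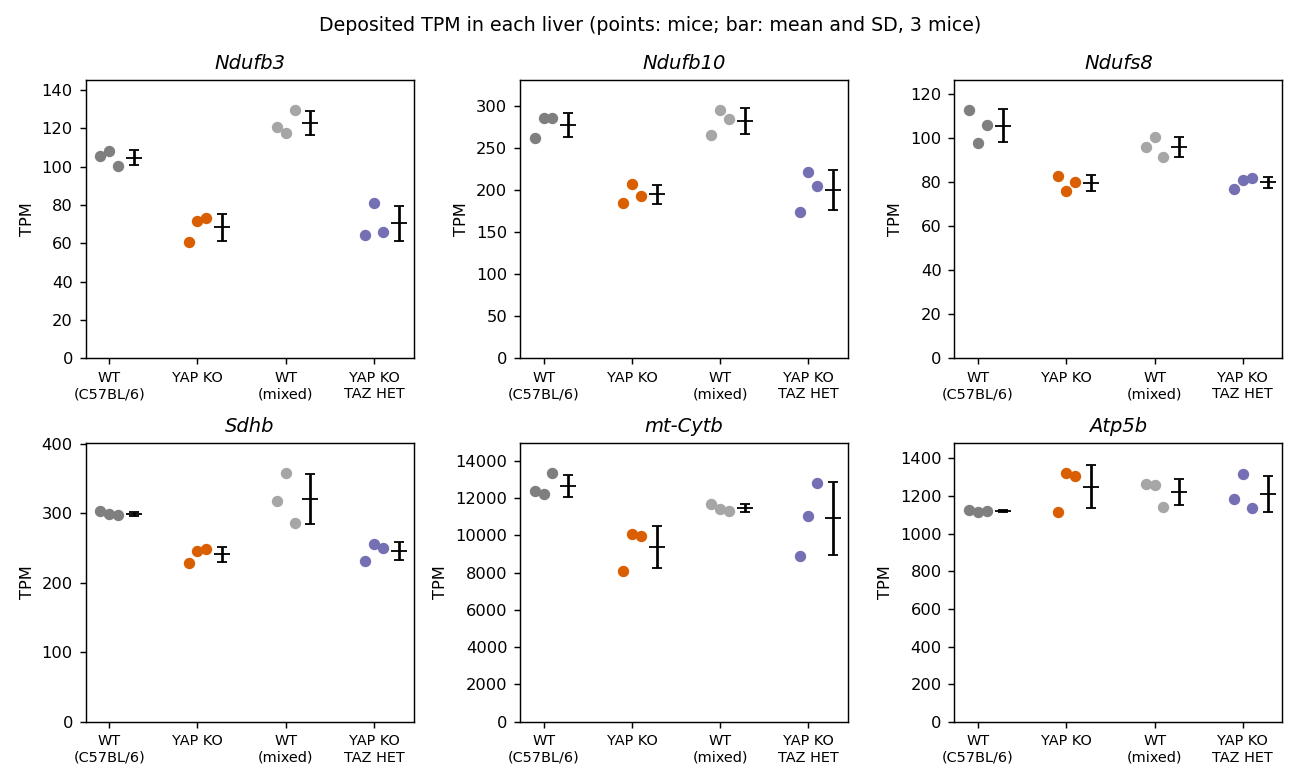
Unscaled TPM of Ndufb3, Ndufb10, Ndufs8, Sdhb, mt-Cytb and Atp5b in each of the 12 livers, with 1 point per mouse and, beside each group of 3, the mean and SD, on axes that start at 0. Ndufb3 is 60.49 to 80.88 TPM in the model livers and 100.5 to 129.8 TPM in the WT livers, while the groups of Atp5b overlap.

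All 13 transcripts of mitochondrial DNA had negative log2 fold changes in both models on the scaled values, but the 2 models differed in how many passed the threshold. In YAP KO, 9 were lower (median -0.56). On the scaled values all 13 had every YAP KO liver below every WT liver, against 26.3% of all genes. Without scaling the median moved to -0.20, beside 0.28 over all genes, with 2 of the 13 lower against 7.13% of all genes. After quantile normalization it moved to 0.00, beside -0.06 over all genes. There 2 of the 13 were lower against 18.2% of all genes, a smaller share. In YAP KO TAZ HET none was lower, also at an unadjusted p under 0.05 (limma). The median of -0.27 turned to 0.06 without scaling and to 0.03 after quantile normalization, beside 0.24 and -0.05 over all genes. The groups did not overlap in 6 of 13, against 27.6% of all genes. As the 13 come from the same livers, these counts are not of independent results.

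The single complex III gene, mt-Cytb, encodes cytochrome b. It stood at 8066, 10070 and 9983 TPM across YAP KO and at 12390, 12210 and 13350 TPM in WT (C57BL/6), and at 8911, 11040 and 12800 TPM across YAP KO TAZ HET against 11710, 11400 and 11290 TPM in WT (mixed). In unscaled TPM the YAP KO livers lay below their littermates, while LM251 of YAP KO TAZ HET lay above its own. The log2 fold changes were -0.80 (SE 0.17, adjusted p = 0.00779) and -0.41 (SE 0.20, adjusted p = 0.139) by limma.

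In complex I, mt-Nd4 fell by 0.67 (adjusted p = 0.00586 by limma) in YAP KO, and mt-Nd3, mt-Nd4l and mt-Nd5 by 1.04, 0.53 and 0.42. mt-Nd3 varied widely, at 2979, 1688 and 1600 TPM across YAP KO and 4409, 2358 and 3157 TPM in WT (C57BL/6), where LM74 lay above 1 WT liver in unscaled TPM. mt-Nd6 (-0.43), mt-Nd2 (-0.40) and mt-Nd1 (-0.22) did not pass, though mt-Nd6 did (adjusted p = 0.0424 by limma) with LM74 and LM75 as a block. In complex IV, mt-Co2 and mt-Co3 fell by 0.58 and 0.65 and mt-Co1 had a value of -0.38 (adjusted p = 0.0994 by limma), and in complex V, mt-Atp6 and mt-Atp8 fell by 0.67 and 0.56. mt-Nd1 stood at 12030, 10850 and 10270 TPM across YAP KO and at 9878, 9232 and 11080 TPM in WT (C57BL/6), so that 2 of the 3 WT livers lay below every YAP KO liver in unscaled TPM, and its log2 fold change without scaling was 0.14.

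Of the 9 calls, mt-Nd4, mt-Cytb, mt-Co3 and mt-Atp6 held with each mouse left out in turn. Of these, mt-Nd4 and mt-Cytb were lower also without scaling, after quantile normalization and with the length trend taken out. Without scaling mt-Co3 (adjusted p = 0.0786) and mt-Atp6 (adjusted p = 0.0597) did not pass by limma, and after quantile normalization their values were 0.05 and 0.02. At most, the adjusted p (limma) rose to 0.0723 for mt-Nd3 without LM191, and without LM193 to 0.0898 for mt-Nd4l, 0.113 for mt-Nd5, 0.0685 for mt-Co2 and 0.111 for mt-Atp8. Of the 6 fits that left out 1 mouse, 4 lost the call for mt-Nd3, 5 for mt-Nd4l, 4 for mt-Nd5, 2 for mt-Co2 and 3 for mt-Atp8. mt-Nd4l overlaps mt-Nd4 and mt-Atp8 overlaps mt-Atp6, so that their reads may be split between them. mt-Nd6 lies on the strand opposite to the other genes and overlaps only mt-Nd5 among them, by a short stretch. Reads from that stretch cannot be told apart where counting does not use strand. In YAP KO TAZ HET the values for the 13 genes ran from -0.41 (mt-Cytb) to -0.10 (mt-Nd3), with mt-Co2 at -0.40, mt-Co3 at -0.38, mt-Atp8 at -0.35, mt-Atp6 at -0.32, mt-Co1 at -0.28, mt-Nd4 at -0.27, mt-Nd6 at -0.25, mt-Nd2 and mt-Nd5 at -0.23, mt-Nd1 at -0.19 and mt-Nd4l at -0.13.

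As a share of all TPM, the 13 mitochondrial genes made up 12.21%, 12.09% and 11.9% of the YAP KO libraries and 13.72%, 12.66% and 14.76% of WT (C57BL/6). They made up 12.03%, 13.36% and 15.13% of the YAP KO TAZ HET libraries and 13.61%, 12.88% and 13.27% of WT (mixed). The YAP KO shares lay below all their littermates, while those of YAP KO TAZ HET lay on both sides. The 81 nuclear-encoded genes made up 1.848% ± 0.036 in YAP KO, 2.043% ± 0.0828 in WT (C57BL/6), 1.924% ± 0.2 in YAP KO TAZ HET and 2.025% ± 0.0877 in WT (mixed) (SD, n = 3 each), where LM225 alone, at 1.694%, lay below the WT (mixed) livers.

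Set side by side, the models had 33 genes lower in both, which is 44.6% of the YAP KO list and 97.1% of the YAP KO TAZ HET list, while 13% of all 11530 genes tested in both were lower in both. Of the 33, 16 belong to complex I, 3 to complex II, 5 to complex III, 1 to complex IV and 8 to complex V, and none is from mitochondrial DNA. A further 41 passed in YAP KO alone, 1 in YAP KO TAZ HET alone (Ndufa10, -0.32 and -0.38) and 18 in neither. On the scaled values both log2 fold changes were negative for 91 of 93, though the median of the subunits relative to all genes reached 0.01 in YAP KO TAZ HET after quantile normalization. Across the 93 genes, which share libraries within each model, the values of the models had a Pearson r of 0.47 and a Spearman rho of 0.44, given as a description. With any 1 mouse left out, 47 genes kept an adjusted p under 0.05 in YAP KO, 20 in YAP KO TAZ HET and 15 in both. The share of all genes under this rule is not given here, so these counts are not set against other genes.

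**Figure D3:**
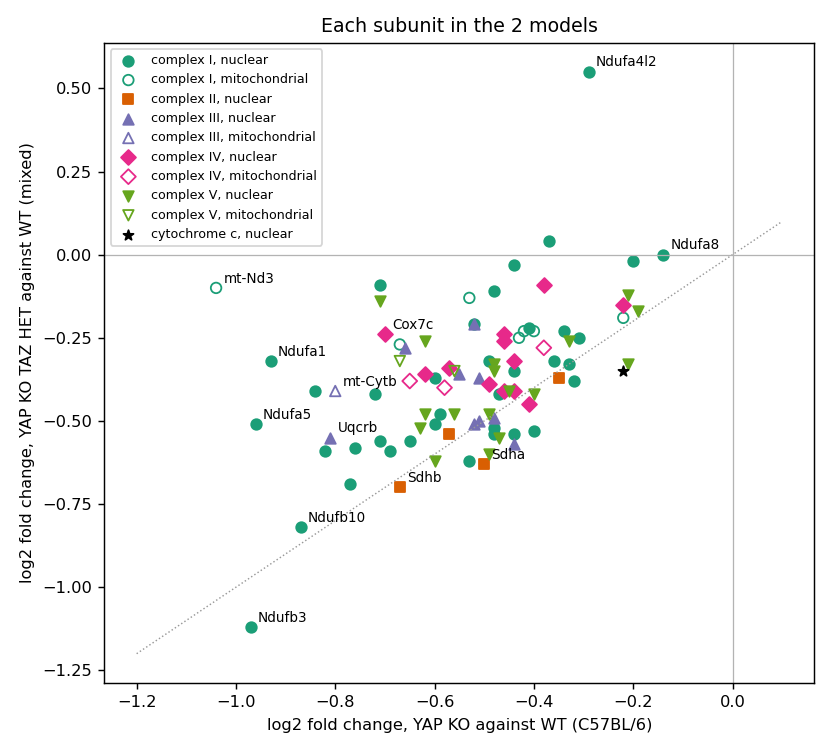
Log2 fold change of 93 subunit genes in YAP KO against WT (C57BL/6) on the horizontal axis and in YAP KO TAZ HET against WT (mixed) on the vertical axis, on the scaled values, with colour and shape for the complex, open symbols for mitochondrially encoded genes and a dotted line of equal values. Ndufb3 lies lowest on the vertical axis at -1.12 and mt-Nd3 farthest left at -1.04.

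A different number of genes past the threshold is not a difference between models, so the difference itself was fitted over all 12 livers. None of the 94 genes passed (limma, Benjamini-Hochberg), while 0.0576% of all 12159 genes did. None had an unadjusted p under 0.05 (limma), while 555 of all genes did. The median difference, YAP KO minus YAP KO TAZ HET, was -0.12. For all 13 mitochondrial genes it was negative (median -0.22), though for 8 of 13 after quantile normalization (median -0.08) and 10 of 13 with the length trend taken out (median -0.09), with the smallest unadjusted p at 0.0631 for mt-Nd4 and 0.0682 for mt-Nd3 (limma). Between the WT groups, WT (mixed) minus WT (C57BL/6), none of 93 passed, while 0.216% of all genes did. An unadjusted p under 0.05 (limma) was found for 3 of the 93, a smaller share than the 650 of all 11126 genes. The 3 were Ndufs7 (-0.40), Ndufa5 (-0.25) and Ndufa7 (-0.29), with unadjusted p of 0.00256, 0.0299 and 0.0429 by limma. The median of the 93 was -0.08. Both comparisons use the same livers as those of the models with their littermates.

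The size of the fall depended on the scaling, and the most abundant transcripts of the liver differed as well, whose part in the result was not tested. The Mup genes, which encode major urinary proteins, made up 4.49% of TPM in WT (C57BL/6) and 0.1977% in YAP KO, and 4.039% in WT (mixed) and 0.02243% in YAP KO TAZ HET. Albumin, Alb, made up 7.86% and 6.014%, and 7.545% and 6.151%. Without a scaling factor the median of all genes was 0.28 in YAP KO and 0.24 for YAP KO TAZ HET, and that of the subunits was -0.13 and -0.05. Relative to all genes, the subunits were thus at -0.45 with the factor and -0.41 without it in YAP KO, and at -0.33 and -0.29 in YAP KO TAZ HET. Quantile normalization, which gives each library the same distribution of values, brought them to -0.12 and 0.01 relative to all genes.

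Without scaling, 21 subunit genes in YAP KO and 9 for YAP KO TAZ HET were lower, against 7.13% and 7.55% of all genes. With quantile normalization 27 and 10 of 93 were lower, against 18.2% and 18.8%, so that the 10 are a smaller share than that of all genes. Also without scaling, Ndufa8 (0.32, adjusted p = 0.0395) and Ndufa4l2 (0.81, adjusted p = 0.0343) were higher in YAP KO TAZ HET by limma, against 34.8% of all genes. Of 93 subunit genes, 21 in YAP KO, 5 in YAP KO TAZ HET and 4 in both were lower under all 4 scalings. These were with the factor, without it, after quantile normalization and with a trend on transcript length taken out. Of all genes, 6.98%, 7.31% and 5.23% were lower, so that the 5 and the 4 are smaller shares than those of all genes. The 4 were Ndufb3, Ndufb10, Ndufs8 and Sdhb, the genes described above for complexes I and II. Without scaling their log2 fold changes in the models (YAP KO first) were -0.61 and -0.80 for Ndufb3, -0.51 and -0.50 for Ndufb10, -0.40 and -0.26 for Ndufs8 and -0.31 and -0.38 for Sdhb, with the largest adjusted p at 0.0499 for Ndufs8 in YAP KO TAZ HET (limma).

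**Figure D4:**
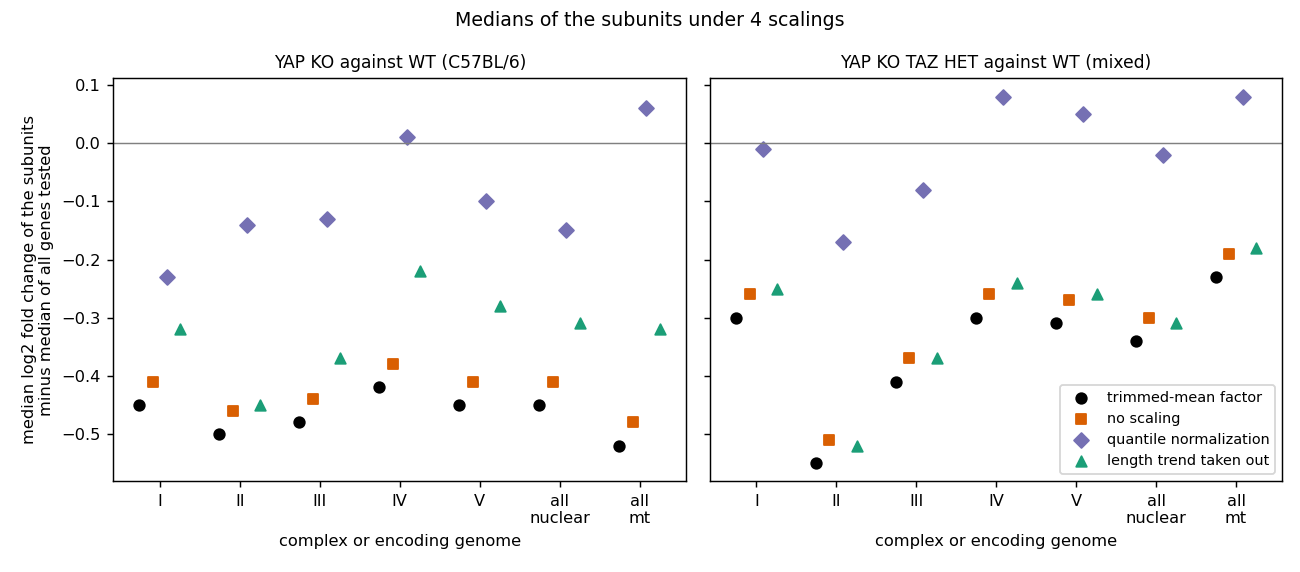
Median log2 fold change of the subunit genes minus the median of all genes tested, for each complex and each encoding genome in the 2 models, with 1 symbol for each of 4 scalings of the same libraries. The nuclear-encoded genes lie at -0.45, -0.41, -0.15 and -0.31 in YAP KO (scaling factor, none, quantile normalization, length trend taken out) and at -0.34, -0.30, -0.02 and -0.31 in YAP KO TAZ HET, and the mitochondrial genes lie above all genes after quantile normalization, at 0.06 and 0.08.

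The nuclear-encoded subunits have short transcripts, with a median length of 838 bases against 2810 bases over 12152 genes tested, and lie on 19 chromosomes with at most 6 on any of them. Within groups, livers differed in how their subunit levels ran with transcript length. Over 79 nuclear-encoded genes, the Spearman rho between length and a liver's deviation from its group mean was -0.48, 0.41 and 0.39 in YAP KO (LM74, LM189 and LM191) and -0.48, 0.43 and 0.29 in WT (C57BL/6) (LM75, LM192 and LM193). It was 0.57, -0.16 and -0.46 in YAP KO TAZ HET (LM225, LM250 and LM251) and 0.31, 0.23 and -0.49 in WT (mixed) (LM226, LM227 and LM230). Every group thus held livers with rho of either sign, which follows largely from taking deviations from the mean of the group. Such deviations cannot show a length effect that differs between groups.

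**Figure D5:**
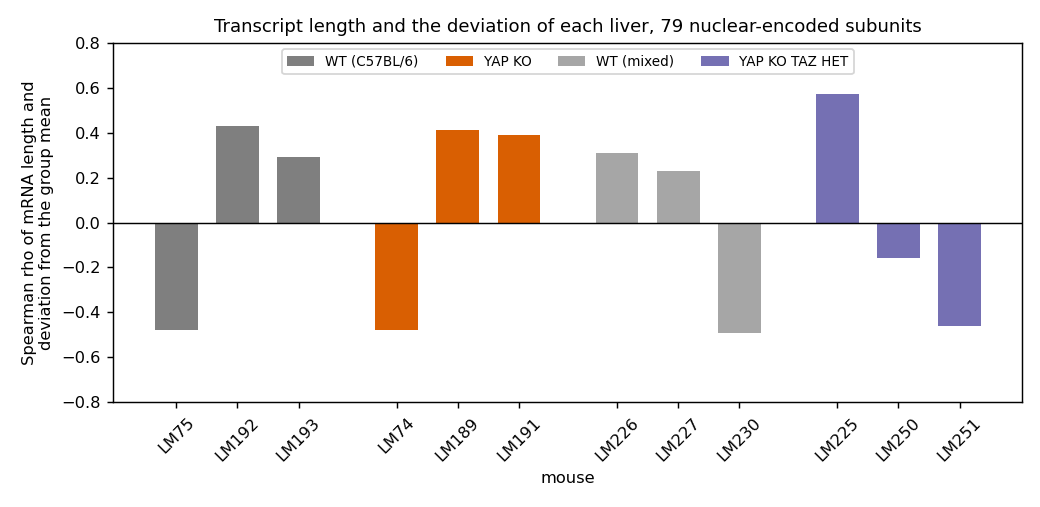
Spearman rho, over 79 nuclear-encoded subunit genes, between transcript length and the deviation of a liver from its group mean, with 1 bar per mouse coloured by group. The bars run from -0.49 in LM230 to 0.57 in LM225. Bars of either sign within a group follow largely from taking deviations from its mean.

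In YAP KO the 3 length classes had like medians, at -0.50 for 22 genes under 600 bases, -0.55 for 27 from 600 to under 1000 bases and -0.48 for 30 of 1000 bases or more, with 19, 22 and 24 lower. For YAP KO TAZ HET the medians were -0.26, -0.42 and -0.49, with 1, 13 and 20 lower, where 19.0% of all genes were. Once each library's trend on length was taken out, an alternative chosen after the data were seen, 41 subunit genes were lower in YAP KO and 36 for YAP KO TAZ HET, against 13.6% and 15.2% of all genes, with medians of -0.28 and -0.22 beside 0.04 and 0.05 over all genes. Under it 3, 13 and 21 genes of the classes were lower in YAP KO, with medians of -0.15, -0.25 and -0.33. For YAP KO TAZ HET 4, 13 and 19 were lower, with medians of -0.10, -0.27 and -0.37. The 3 and the 4 of 22 genes under 600 bases are near the 13.6% and 15.2% of all genes.

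Of 20 genes that regulate mitochondrial biogenesis or maintain and express mitochondrial DNA, 10 were lower and none higher in each model, against 17.9% and 19.0% of all genes lower. Their medians were -0.46 and -0.39 on the scaled values. Without scaling they were -0.13 and -0.09, beside 0.28 and 0.24 over all genes. Lower in both were Ppara, a nuclear receptor of fatty acid oxidation (-1.55 in YAP KO and -1.88 for YAP KO TAZ HET), the mitochondrial transcription factors Tfb2m (-0.83 and -1.03) and Tfam (-0.55 and -0.55), the rRNA methyltransferase Tfb1m (-0.93 and -0.94), Gabpa, which binds ETS motifs (-0.41 and -0.67), Lrpprc, which stabilises mitochondrial mRNA (-0.61 and -0.59), the polymerase subunit Polg2 (-0.68 and -0.57) and the helicase Twnk (-0.49 and -0.40). Ssbp1 and Ppargc1b passed in YAP KO alone (-0.51 and -0.48), and Esrra and Polg in YAP KO TAZ HET alone (-0.65 and -0.50). Ppargc1a, the coactivator best known for mitochondrial biogenesis (-0.06 and -0.26), Nrf1 (-0.16 and -0.03), the mitochondrial RNA polymerase Polrmt (0.00 and -0.16), Yy1 (-0.27 and -0.38), Slirp (-0.44 and 0.07), Mterf1a (-0.48 and -0.22), Tefm (-0.32 and -0.21) and Pprc1 (-0.13 and -0.17) passed in neither. Ppara and Tfb2m passed the threshold also without scaling and after quantile normalization in both models.

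Other mitochondrial gene lists also had more genes lower than higher on the scaled values, where 17.9% and 19.0% of all genes were lower. Of 43 assembly factors of the complexes, 17 were lower and 1 higher in YAP KO, and 18 and 2 in YAP KO TAZ HET, with medians of -0.35 and -0.30 that were near 0 without scaling. Ndufaf4, an assembly factor of complex I, fell by 1.08 and 1.47, and Ecsit, another, by 0.72 and 0.90. Of 78 mitochondrial ribosome proteins, 41 and 26 were lower and 0 and 2 higher (medians -0.36 and -0.30), of 14 citric acid cycle genes 5 and 10 were lower (-0.31 and -0.46, with Idh3a at -0.73 and -0.98), and of 24 import and outer membrane genes 16 and 13 were lower (-0.44 and -0.37). Of 22 carriers and other electron donors, 10 were lower and 4 higher in YAP KO and 12 and 3 for YAP KO TAZ HET. Without scaling the medians were -0.01 and 0.01 for the ribosome, 0.05 and -0.14 for the citric acid cycle, -0.09 and -0.06 for import and 0.09 and -0.10 for the carriers. Over all genes the medians without scaling were 0.28 and 0.24, above those of each of these lists. Slc25a4, the heart and muscle form of the ADP/ATP carrier, rose by 1.67 and 1.74, and Prodh, proline dehydrogenase, fell by 1.34 and 1.38.

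Many promoters of these genes hold motifs of NRF1, of ETS factors such as Gabpa or of the estrogen-related receptors (ERR), which are known regulators of respiratory genes. The RefSeq windows on GRCm38, from 250 bases before to 50 after the start, covered 62 of the 81 nuclear-encoded genes and were searched on both strands. The NRF1 motif (CGCANGCG) was in 38.7% of the windows against 17.6% of those of 8896 genes tested, the ETS motif (CCGGAAG) in 24.2% against 18.6%, the ERR motif (AAGGTCA) in 12.9% against 3.32% and the YY1 motif (AAGATGGCG) in 8.06% against 3.43%. These motifs do not lie within each other, though their sites may overlap in a window. Genes with and without a motif had close medians, at -0.50 and -0.49 in YAP KO and -0.38 and -0.41 for YAP KO TAZ HET with NRF1, and -0.58 and -0.49, and -0.46 and -0.38, with ERR. Stretches of 4 windows whose genes were lower in both models are shown, to give what such a promoter reads like, with the motif in capitals, 5′ to 3′ along the gene.
Ndufb2: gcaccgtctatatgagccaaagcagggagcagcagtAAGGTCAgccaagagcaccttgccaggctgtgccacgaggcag
Atp5g3: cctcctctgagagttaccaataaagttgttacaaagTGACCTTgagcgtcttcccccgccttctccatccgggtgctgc
Ndufb4: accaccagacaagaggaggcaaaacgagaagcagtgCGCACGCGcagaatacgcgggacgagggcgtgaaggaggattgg
Atp5h: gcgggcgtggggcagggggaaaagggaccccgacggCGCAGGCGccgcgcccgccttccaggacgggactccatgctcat
Ndufb2 (chr6:39592348-39592426, plus strand) and Atp5g3 (chr2:73911336-73911414, minus strand) hold the ERR motif, the latter on the reverse strand, and Ndufb4 (chr16:37654515-37654594, minus strand) and Atp5h (chr11:115420016-115420095, minus strand) the NRF1 motif. All 4 stretches lie upstream of the annotated starts and outside exons. Ndufb2 fell by 0.44 in YAP KO, not without LM193 (adjusted p = 0.0602 by limma), and by 0.54 in YAP KO TAZ HET, and Ndufb4 by 0.60 and 0.51. The YAP KO call of Ndufb2 was lost in 3 of the 6 fits that left out 1 mouse. A match is a description of the letters, and binding of the factors was not measured.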

How the data were processed

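RNA-seq of whole liver was measured in 12 mice. The authors mapped reads to GRCm38, counted them per gene in CLC Genomics Workbench and deposited TPM per mouse, which sum to 1000000 in each library, beside columns of their own edgeR comparisons (fold changes, p-values, adjusted p-values and the larger group mean), which were not used. TPM keeps no depth, so depth and counting error are unknown. Whether counting used strand is not given in the sources used here.

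TPM were divided by a trimmed-mean-of-log-ratios factor (30% of log ratios and 5% of levels trimmed at each end), and log2(value + 1) was fitted with limma 3.58.1 (trended eBayes) in R 4.3.3 over genes at 1 TPM or more in at least 3 libraries of the fit. P-values were adjusted by Benjamini-Hochberg over all genes tested, with a two-sided threshold of 0.05, and the script was tested on simulated data. Summaries used Python 3.11.15. Fits held the 6 livers of a comparison or, for the difference between models, all 12. Transcript lengths came from GENCODE, chosen as the principal transcript, and promoter windows from RefSeq. The file's Atp5o_2 is taken as Atp5o. Near-identical processed copies of many subunit genes can take reads from them, which bears on every value given here.

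Genes named in the text are all mitochondrially encoded members, the Sdh genes, Cyc1 and Cycs, the 3 lowest and 3 highest nuclear-encoded genes of complexes I, III, IV and V by mean fold change, core catalytic subunits, isoform sets, extremes of level and the regulators. 1 gene that this rule names is not reported here. Other lists are given by counts and at most 4 genes. The members and lists were chosen with earlier results of these data known. No label places the mice of a group in separate litters, so p-values measure only the spread between these mice.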

Additional observations from a re-analysis of the deposited data

How the results depend on the processing

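No paired analysis was possible because the labels give no replicate number that groups share, so that a block on near mouse numbers, given further on, is no pairing. The count of genes lower in YAP KO, 74, was 41 with the length trend taken out, 21 without scaling, 27 after quantile normalization and 36 at an adjusted p under 0.01, and 52 to 66 with 1 mouse left out. The count in YAP KO TAZ HET, 34, was 9 without scaling, 10 after quantile normalization and 15 at an adjusted p under 0.01. With 1 mouse left out it was 21 to 41, lowest without LM227 or LM230 and highest without LM226. Without scaling, 2 genes were higher. Shares of all genes are not given here for an adjusted p under 0.01 or with 1 mouse left out. Those counts are thus not set against other genes. The median of nuclear-encoded genes in YAP KO was -0.27 with the length trend taken out, -0.13 without scaling, -0.21 after quantile normalization and -0.54 to -0.45 with 1 mouse left out. In YAP KO TAZ HET it was -0.06 both without scaling and after quantile normalization, -0.66 with LM225 alone against the WT (mixed) mice and -0.48 to -0.28 with 1 mouse left out. The mitochondrial median in YAP KO was -0.28, -0.20 and 0.00 under the first 3 of these, and -0.66 to -0.44 with 1 mouse left out, at -0.44 without LM74. In YAP KO TAZ HET it turned to 0.06 without scaling and 0.03 after quantile normalization, was -0.49 with LM225 alone and -0.34 to -0.17 with 1 mouse left out.

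After quantile normalization the medians of complexes IV and V in YAP KO TAZ HET turned to 0.03 and 0.01, and of genes past the threshold before or after, mt-Nd5 (0.06), mt-Co3 (0.05), mt-Co2 (0.07) and mt-Atp6 (0.02) turned in YAP KO. Among such genes, without scaling Ndufc2 (0.03), Ndufa13 (0.02), Ndufs5 (0.05), Sdhc (0.01) and Atp5g2 (0.03) turned in YAP KO and Ndufa8 (0.32) in YAP KO TAZ HET, and with the length trend taken out Ndufs5 (0.01) turned in YAP KO. Without scaling 78 of the 93 values were negative for YAP KO, and 61 of 93 for YAP KO TAZ HET. The cause was not tested. The difference between models and that between WT groups had 0 genes past the threshold under each alternative run (limma). The length trend, LM225 alone and 2 further alternatives were chosen after seeing the data. With near mouse numbers (LM74 and LM75) as a block, 80 genes were lower in YAP KO. The 6 gained were mt-Nd6, Ndufc1, Cox7a2, Cox6b1, Atp5k and Atp5md. With LM189 and LM191 against LM192 and LM193, 62 were lower. The shares of all genes in these fits are not given here, so neither count is set against other genes. The fit with LM225 alone, whose medians are given above, assumes that this mouse varies like the WT mice. With the scaling kept, the other settings not added later gave 1101 values for single genes in YAP KO, of which 984 kept their side of the threshold, 108 lost it, 9 gained it and 0 turned, and 1102 in YAP KO TAZ HET, of which 1038, 41, 23 and 0 did. Depth is unknown from TPM, so what it limits could not be measured.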

Other observations

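Subunits and partners that the names leave out were lower as well on the scaled values. Of 5 such genes tested, 4 were lower in YAP KO (median -0.59) and 3 in the YAP KO TAZ HET livers (median -0.56), where 17.9% and 19.0% of all genes were. Dmac2, which takes part in building the membrane arm of complex I, fell by 1.39 and 1.28 on the log2 scale, and Ndufab1, an acyl carrier protein found in complex I, fell by 0.59 and 0.62. Ndufb1-ps, left out for its name, stood at a mean of 33.94 TPM in YAP KO, 40.54 TPM in WT (C57BL/6), 39.95 TPM in YAP KO TAZ HET and 30.99 TPM in WT (mixed), with log2 fold changes of -0.60 (adjusted p = 0.0695) and 0.03 (adjusted p = 0.891) by limma.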
